A study of Mus musculus with 6 samples.

Results

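Matrix metalloproteinases (MMPs) and tissue inhibitors of metalloproteinases (TIMPs) were followed in mouse heart muscle as a set of 10 genes, the enzymes Mmp2, Mmp3, Mmp9, Mmp14, Mmp15 and Mmp19 and the inhibitors Timp1, Timp2, Timp3 and Timp4. The genes were taken by symbol from the deposited gene tables, where they make up 10 of the 17891 genes listed in any sample, and each was listed in all 6 samples. The samples were myocardium of 6-week-old mice on a C57BL/6 background, 3 of the NS-DADm genotype and 3 wild type (WT). NS-DADm mice are known to carry knock-in mutations that include the deacetylase activating domain of the nuclear receptor corepressor NCOR (gene Ncor1), the domain through which it binds and activates the histone deacetylase HDAC3. The change is in the germ line, so it is present in every cell type of the heart and in the rest of the body. The WT samples are labelled wild type, and no treatment is given for either group. The question the comparison addresses is how heart muscle RNA differs between NS-DADm and WT mice. Whether the samples of a group are different mice is not stated in the labels, and p-values therefore cover only the variation among the samples as given, which may be technical.

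MMPs are zinc-dependent endopeptidases that cut collagens, laminins, elastin and other proteins outside the cell. They are made as inactive precursors, they are switched on when a propeptide is removed, and TIMPs stop them by inserting their amino terminus into the active site. In the heart they take part in turnover of the collagen network, in repair after infarction and in the remodelling of failing muscle. RNA levels do not show how much enzyme is active, since activation and inhibition take place at the protein.

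The coding sequences of the active site and of the inhibitory terminus are shown for 5 genes, because they are what makes these proteins enzyme and inhibitor. The gene with the large difference, Mmp9, is set beside the related gelatinase Mmp2 and the most abundant enzyme gene, Mmp15, and the inhibitor best known for binding pro-MMP-9, Timp1, beside the most abundant inhibitor gene, Timp3. Sequences and exon numbers are from the GRCm38 genome with the GENCODE vM21 annotation, written 5′ to 3′ on the coding strand. In the MMPs capitals mark the codons of the 3 histidines that hold the catalytic zinc, and in the TIMPs the codons of the first cysteines of the mature protein, of which the one at the amino terminus binds that zinc.
Mmp9 (chr2:164951133-164951165, plus strand, coding, exon 8): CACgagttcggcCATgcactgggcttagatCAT
Mmp2 (chr8:92839279-92839311, plus strand, coding, exon 8): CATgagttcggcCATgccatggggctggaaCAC
Mmp15 (chr8:95368585-95368617, plus strand, coding, exon 5): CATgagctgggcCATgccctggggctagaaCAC
Timp1 (chrX:20871111-20871149, plus strand, coding, exon 2): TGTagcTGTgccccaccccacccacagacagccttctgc
Timp3 (chr10:86300923-86300961, plus strand, coding, exon 1): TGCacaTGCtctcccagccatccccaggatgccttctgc
Over these 33 bases Mmp9 and Mmp2 were identical at 25 positions (75.8%), and the 6 enzymes were 60.6% to 87.9% identical in pairs. The inhibitors were 64.1% to 71.8% identical over 39 bases. Of the 3126 stretches of 50 bases in the Mmp9 transcript, 0 occurred in a transcript of any other gene on either strand, and the same held for Mmp2, Timp1 and Timp2; the other 6 genes shared such stretches with other genes, as given with the overlaps.

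Total expected counts were 12262523 to 12758311 in the NS-DADm samples and 10183792 to 11205221 in the WT samples. All 6 samples had high levels of cardiomyocyte genes, with a summed FPKM (a level scaled by transcript length and by the mapped reads or fragments of the library) of 10 markers at 66590.2 to 74011.4 in NS-DADm and 65734.6 to 74666.0 in WT. Samples stood apart within both groups in how much atrial RNA they held. The summed FPKM of 7 atrial markers was 3846.6, 597.1 and 6679.8 in NS-DADm 1, 2 and 3, and 558.2, 292.0 and 4776.8 in WT 1, 2 and 3. NS-DADm 1, NS-DADm 3 and WT 3 were thus the atrial-rich samples, and adipocyte markers were highest in the same samples (47.7, 7.28 and 254.0 summed FPKM in NS-DADm, against 10.2, 3.98 and 74.9 in WT). RNA of Ncor1 (log2 fold change 0.10, SE 0.06, adjusted p = 0.432, edgeR) and of Hdac3 (0.03, SE 0.07, adjusted p = 0.884) did not pass the test, which does not check the labels, since the mutations alter protein and need not alter RNA.

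Mmp9 (gene ID 17395), which encodes gelatinase B, an enzyme that cuts denatured collagen and the type IV collagen of basement membranes and that leukocytes are known to release, was the member that changed. Its FPKM was 3.39, 3.26 and 3.05 in the NS-DADm samples, against 0.63, 0.22 and 0.26 in the WT samples. The lowest NS-DADm value was thus well above the highest WT value, and the NS-DADm samples lay close together. These levels rested on 131, 130 and 117 reads (expected counts) in NS-DADm and on 21, 7 and 9 reads in WT, so the WT level is the less precisely known. Mean FPKM was 3.23 ± 0.17 in NS-DADm and 0.370 ± 0.23 in WT (SD, n = 3 each). The fitted rise was 8.86-fold (95% interval 5.64 to 13.9), a log2 fold change of 3.15 with an SE of 0.29 (adjusted p = 0.000517 in the quasi-likelihood test of edgeR, by the Benjamini-Hochberg method over all tested genes). Among the 13130 tested genes, Mmp9 ranked 19 by p and 9 by the size of its log2 fold change. In bulk tissue, more cells of a type that makes Mmp9 and more Mmp9 RNA in each cell cannot be told apart.

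**Figure D1:**
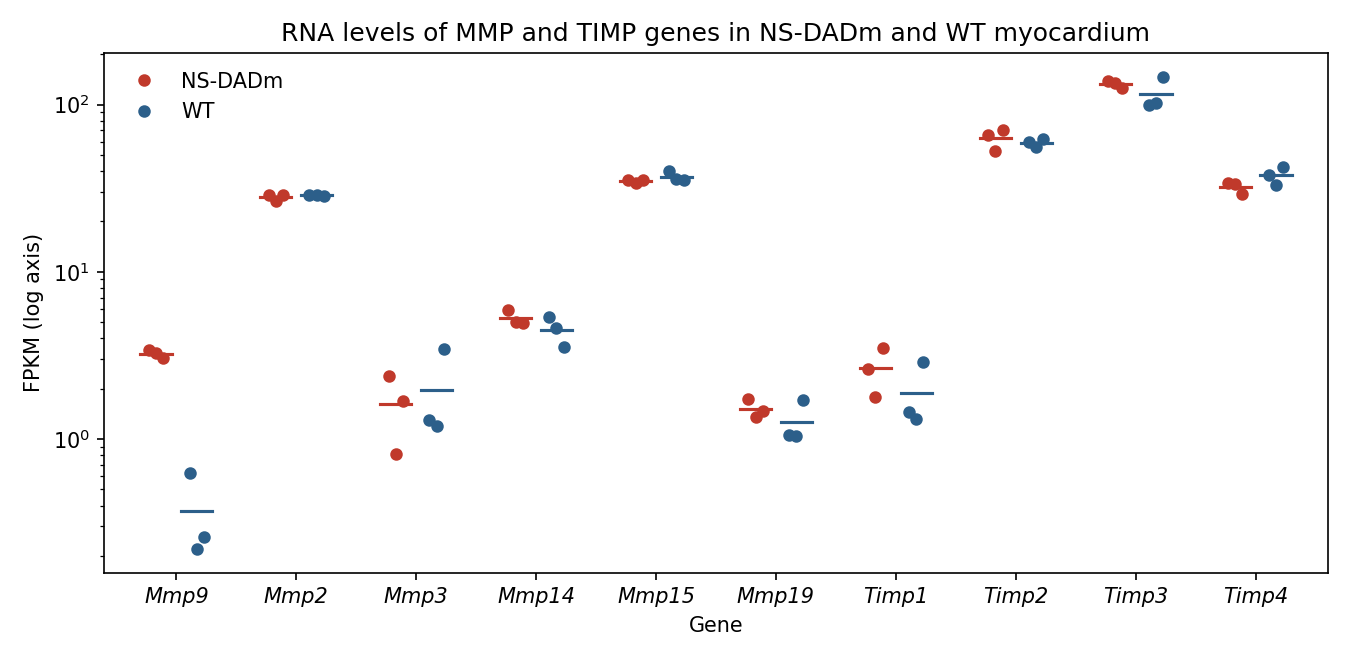
RNA levels (FPKM, log axis) of 6 MMP genes and 4 TIMP genes in 3 NS-DADm samples (red, left of each pair) and 3 WT samples (blue, right). Points are samples 1, 2 and 3 from left to right and lines are group means. For Mmp9 the NS-DADm points (3.05 to 3.39) are far above the WT points (0.22 to 0.63), while for 8 other genes the groups overlap and for Mmp15 they are just apart, with NS-DADm lower.

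Of the 10 genes, 1 was called changed at an adjusted p under 0.05, against 3.20% of all tested genes (1.79% higher and 1.41% lower; 18.1% had an unadjusted p under 0.05), so the call is a result about Mmp9 and not about the family. The groups did not overlap for 2 of the 10, Mmp9 with NS-DADm above WT and Mmp15 with NS-DADm below WT, against 23.4% of tested genes (8.94% above and 14.5% below). A positive fold change was found for 6 of the 10, against 49.3% of tested genes. The median log2 fold change of the 10 was 0.16, where that of all tested genes was -0.00 with quartiles of -0.12 and 0.13.

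Mmp2 (gene ID 17390), gelatinase A, shares its main substrates with Mmp9 and is made constitutively by fibroblasts and other stromal cells. It stood at 28.81, 26.56 and 28.64 FPKM in NS-DADm, against 28.87, 28.63 and 28.47 in WT. The values overlapped and the interval of the difference was narrow (log2 fold change -0.01, 95% interval -0.14 to 0.12, adjusted p = 0.954, edgeR). The ratio of Mmp9 to Mmp2 was 0.118, 0.123 and 0.106 in NS-DADm, against 0.0218, 0.00768 and 0.00913 in WT, so Mmp9 remained the minor gelatinase RNA in both groups.

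Mmp3 encodes stromelysin-1, which cuts proteoglycans and laminin and can activate other pro-MMPs. Its FPKM was 2.37, 0.81 and 1.69 in NS-DADm, against 1.29, 1.19 and 3.44 in WT, from 18 to 51 and from 21 to 67 reads. The groups overlapped, with the highest and the lowest value in different groups (log2 fold change -0.27, 95% interval -1.28 to 0.75, adjusted p = 0.810, edgeR). With this spread between samples the interval was the widest of the 10 genes. The sign of the Mmp3 difference turned to 0.05 without NS-DADm 2 and to 0.40 without WT 3 (adjusted p from 0.163 to 0.974 over all alternatives).

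The membrane-type enzymes differed in level but neither passed the test. Mmp14 (MT1-MMP), the membrane-anchored collagenase that activates pro-MMP-2 together with TIMP-2, had 5.88, 4.99 and 4.93 FPKM in NS-DADm, against 5.35, 4.63 and 3.55 in WT (log2 fold change 0.25, 95% interval -0.07 to 0.57, adjusted p = 0.405, edgeR). Its groups overlapped, with WT 3 the lowest sample. Mmp15 (MT2-MMP), a related membrane-anchored enzyme, had 35.48, 34.14 and 35.17 FPKM in NS-DADm, against 39.95, 35.68 and 35.60 in WT. Its groups were barely apart, the highest NS-DADm value of 35.48 lying just under the lowest WT value of 35.60 (log2 fold change -0.06, 95% interval -0.21 to 0.08, adjusted p = 0.668, edgeR). Mmp19, a soluble enzyme that cuts basement membrane proteins, had 1.74, 1.35 and 1.47 FPKM in NS-DADm, against 1.06, 1.04 and 1.71 in WT. Here too the groups overlapped through WT 3 (log2 fold change 0.26, 95% interval -0.24 to 0.76, adjusted p = 0.596, edgeR).

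Among the inhibitors, Timp1 is the inducible one and binds pro-MMP-9 as well as the active enzyme. Timp1 (gene ID 21857) had 2.61, 1.79 and 3.52 FPKM in NS-DADm, against 1.45, 1.31 and 2.88 in WT, from 19 to 36 and from 11 to 27 reads. The samples overlapped, and at these low counts the interval of the log2 fold change of 0.50 was wide (-0.33 to 1.33, adjusted p = 0.530, edgeR). Timp2, which forms the complex with MMP-14 that activates pro-MMP-2, had 65.60, 52.61 and 70.39 FPKM in NS-DADm, against 59.71, 55.51 and 62.20 in WT. NS-DADm held both the highest and the lowest Timp2 sample (log2 fold change 0.11, 95% interval -0.10 to 0.32, adjusted p = 0.585, edgeR).

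Timp3 (gene ID 21859), an inhibitor that stays bound to the matrix and also blocks ADAM and ADAMTS proteases, had the highest level of the 10 genes. Its FPKM was 137.76, 134.03 and 126.15 in NS-DADm, against 99.67, 102.44 and 146.81 in WT. WT 1 and WT 2 were below every NS-DADm sample and WT 3 was above them all. Over all samples the log2 fold change of 0.21 (SE 0.13, 95% interval -0.07 to 0.50) did not pass the test (adjusted p = 0.420, edgeR). Without WT 3, an atrial-rich sample, Timp3 passed at a log2 fold change of 0.41 (adjusted p = 0.0197), while over all 14 alternatives the adjusted p ran up to 0.755. Timp4, the inhibitor most restricted to heart and a few other tissues, had 33.76, 33.48 and 29.08 FPKM in NS-DADm, against 37.64, 33.23 and 42.19 in WT. The groups overlapped through WT 2, and the interval of the log2 fold change of -0.20 (-0.43 to 0.02, adjusted p = 0.325, edgeR) reached just past 0.

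**Figure D2:**
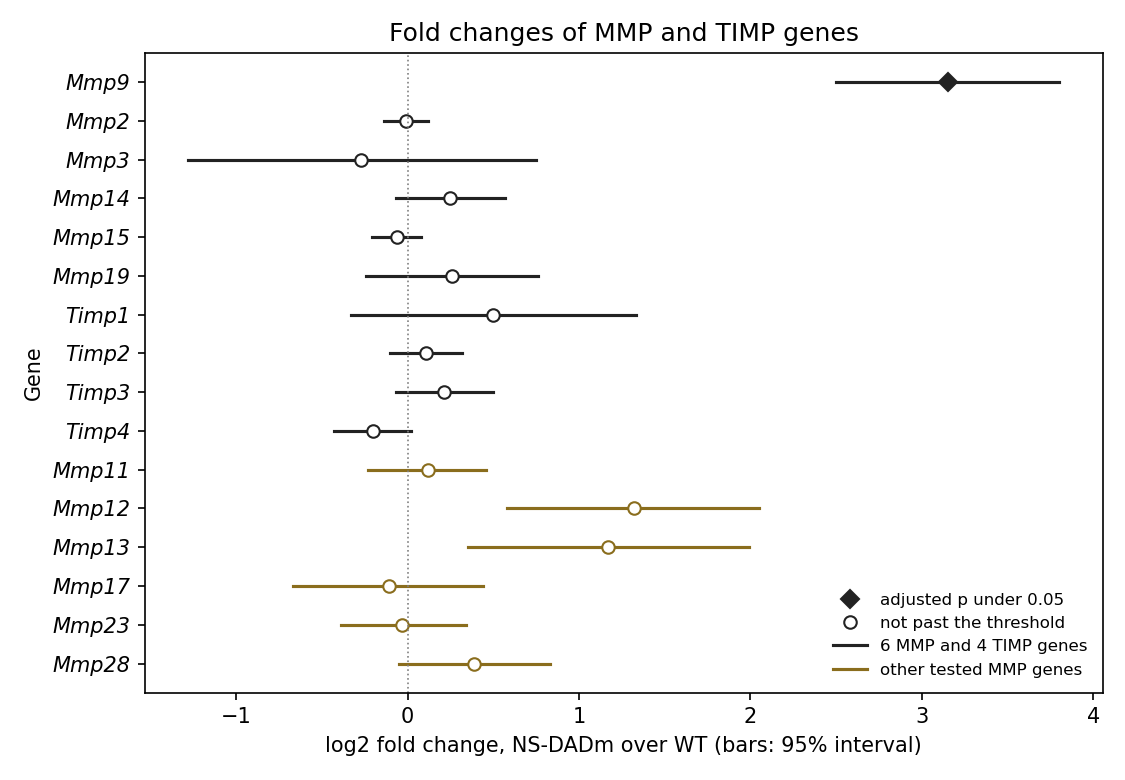
Log2 fold changes, NS-DADm over WT, of 10 MMP and TIMP genes (black) and of the 6 other MMP genes that could be tested (brown), with 95% intervals as bars. Filled diamonds mark an adjusted p under 0.05, which Mmp9 alone reached at 3.15; the intervals of Mmp12 (1.32) and Mmp13 (1.17) lie above 0 before adjustment over all tested genes.

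In mean FPKM the NS-DADm order was Timp3 (132.6), Timp2 (62.9), Mmp15 (34.9), Timp4 (32.1), Mmp2 (28.0), Mmp14 (5.27), Mmp9 (3.23), Timp1 (2.64), Mmp3 (1.62) and Mmp19 (1.52). Neighbours were apart in their ranges down to Mmp14 and Mmp9, while Mmp9 and Timp1, Timp1 and Mmp3, and Mmp3 and Mmp19 overlapped. In WT the order was Timp3 (116.3), Timp2 (59.1), Timp4 (37.7), Mmp15 (37.1), Mmp2 (28.7), Mmp14 (4.51), Mmp3 (1.97), Timp1 (1.88), Mmp19 (1.27) and Mmp9 (0.370). There Timp4 and Mmp15 overlapped, as did Mmp3 with Timp1 and Timp1 with Mmp19. Mmp9 was thus the seventh gene in NS-DADm and the last in WT, below every other gene's range.

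The balance of inhibitor to enzyme RNA depended on which genes were set against each other. The ratio of Timp1 to Mmp9 FPKM was 0.770, 0.549 and 1.15 in NS-DADm, against 2.30, 5.95 and 11.1 in WT. All NS-DADm ratios were below all WT ratios, but Mmp9 is the denominator, so this is no separate result. The summed FPKM of the 4 TIMPs over that of the 6 MMPs was 3.09, 3.12 and 3.06 in NS-DADm, against 2.57, 2.70 and 3.48 in WT. These NS-DADm values fell inside the WT range. Mmp9 made up 4.36%, 4.58% and 4.07% of the summed MMP FPKM in NS-DADm, against 0.817%, 0.308% and 0.356% in WT. Mmp15 and Mmp2 together made up most of that sum in every sample, 82.8% to 85.4% in NS-DADm and 87.7% to 90.1% in WT. Timp3 supplied 55.1% to 60.4% of the summed TIMP FPKM in NS-DADm and 50.2% to 57.8% in WT.

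**Figure D3:**
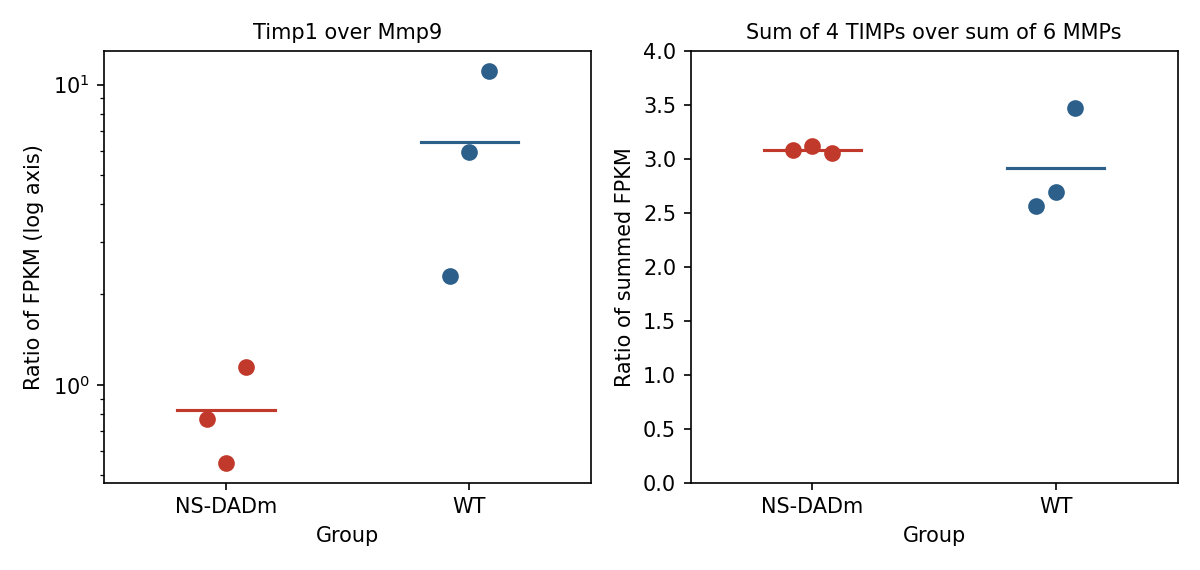
Ratios of FPKM in each NS-DADm (red) and WT (blue) sample, with lines at group means: Timp1 over Mmp9 on a log axis (left) and the sum of 4 TIMPs over the sum of 6 MMPs on a linear axis from 0 (right). The Timp1 to Mmp9 ratio is 0.549 to 1.15 in NS-DADm and 2.30 to 11.1 in WT, while the summed ratio of NS-DADm (3.06 to 3.12) lies inside the WT range (2.57 to 3.48).

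The difference between the groups was also taken within samples of like atrial content. Among the atrial-rich samples the Mmp9 log2 ratio of mean FPKM, NS-DADm 1 and 3 over WT 3, was 3.63. Among the atrial-poor samples, NS-DADm 2 over WT 1 and 2, it was 2.94. Both ratios had to be positive, since every NS-DADm value of Mmp9 is above every WT value. With the atrial score as a covariate the log2 fold change of Mmp9 was 3.21 (adjusted p = 0.000157, edgeR, and 8.71e-18 to 0.00556 over all alternatives). The part of atrial content in the Mmp9 result was not tested beyond this fit. Timp1 was highest in the atrial-rich samples of both groups, and its log2 ratios within them and within the atrial-poor ones were 0.09 and 0.38. Timp3 had opposite signs, -0.15 among the atrial-rich and 0.41 among the atrial-poor samples, and so had Mmp19, at -0.09 and 0.36, Timp2, at 0.13 and -0.13, and Mmp2, at 0.01 and -0.11. Mmp14 had 0.61 and 0.00, Timp4 -0.43 and -0.08, Mmp15 -0.01 and -0.15, and Mmp3 -0.76 and -0.61. These comparisons hold 1 sample in an arm and were not tested. With the atrial score as a covariate, which was tested over all 6 samples, log2 fold changes nearer to 0 were found for Timp1 (0.14, against 0.50 without the score), Timp2 (0.01, against 0.11), Timp3 (0.13, against 0.21) and Mmp19 (0.09, against 0.26). Mmp3 moved away from 0 (-0.77, against -0.27), and so did Mmp14 (0.35, against 0.25) and Timp4 (-0.24, against -0.20). None of these 7 passed the test with the score, and the lowest adjusted p was 0.163, for Mmp3.

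**Figure D4:**
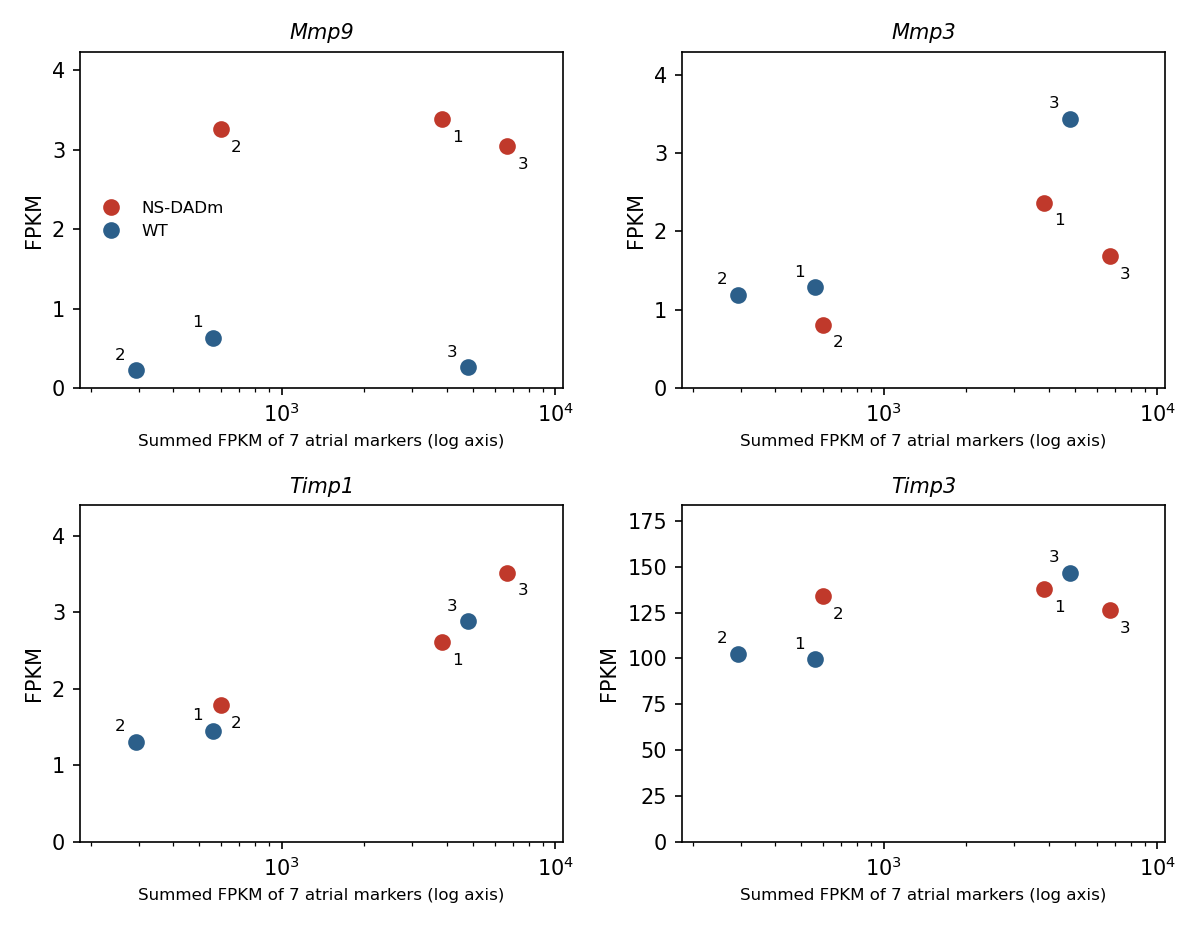
FPKM of Mmp9, Mmp3, Timp1 and Timp3 against the summed FPKM of 7 atrial markers (log axis) in each NS-DADm (red) and WT (blue) sample, numbered by sample. The NS-DADm points of Mmp9 are all above its WT points. Timp1 is high in the samples on the right in both groups (2.61 and 3.52 in NS-DADm, 2.88 in WT). Timp3 of WT 3 (146.81) is above that of every NS-DADm sample.

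The deposited transcript tables had 1 transcript model for 8 of the genes and 2 for Timp1 and Mmp19. Of these 12 transcripts 11 could be tested and 0 were called by edgeR, where 0.0972% of all tested transcripts were; 1 had an unadjusted p under 0.05, the only Mmp9 model, NM_013599. It holds the same reads as the gene and had the same log2 fold change of 3.15, with an SE of 0.44 and an adjusted p of 0.0983. The spread assumed between samples differed, with a biological coefficient of variation of 0.42 over transcripts and 0.106 over genes. For Timp1 the reads fell almost wholly on 1 of 2 models of nearly equal length in most samples. NM_011593 had 27, 0 and 30.09 reads in NS-DADm and 0, 11 and 27 in WT, while NM_001044384 had 0, 19 and 5.91 in NS-DADm and 13, 0 and 0 in WT. Since such all-or-none values differ between replicates of 1 group, Timp1 is described by the gene only.

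Some members lie over other genes, and whether reads were counted by strand is not stated in the sources used here. Timp1, Timp3 and Timp4 each lie within a synapsin gene, of the family of synaptic vesicle proteins. In GENCODE vM21 transcripts, 36.3% of the 50-base stretches of Timp3 occurred on the opposite strand of another gene's transcript, mostly Syn3. Syn3 was listed at 0.22 to 0.23 FPKM in NS-DADm and 0.27 to 0.32 in WT. How reads were divided between Timp3 and Syn3 was not tested. For Timp4 the share of such stretches was 0.789% over a GENCODE transcript of 5496 bases. The deposited Timp4 model has 1416 bases, so the share over the model that was counted may differ. Syn2, the host of Timp4, had 2.08, 1.70 and 1.70 FPKM in NS-DADm, against 1.01, 0.88 and 1.24 in WT. The log2 fold change of Syn2 was 0.82 and did not pass the test (adjusted p = 0.0546, edgeR), in the direction opposite to that of Timp4. Syn1, the host of Timp1, had 0.17 to 0.33 FPKM in NS-DADm and 0.23 to 0.32 in WT. For Mmp19, 25.4% of stretches occurred on the opposite strand, mostly of Tmem198b (4.50 to 4.94 FPKM in NS-DADm, 3.43 to 4.88 in WT), so its level is uncertain. For Mmp3, 8.39% occurred on the same strand elsewhere, mostly in Mmp10, which was not listed in any sample. Mmp14 and Mmp15 shared at most 0.433% and 0.295% of their stretches on a strand, over GENCODE transcripts of 2596 and 5135 bases. Their deposited models have 3801 and 4335 bases. The RefSeq table puts no gene over Mmp9, Mmp3, Mmp14 or Mmp15. It has Gm45472 overlapping Mmp2 and Cep295nl overlapping Timp2, and neither was listed in any sample.

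Of 17 other MMP genes searched, 13 were listed in some sample and 6 could be tested. None was called by edgeR, DESeq2 or limma, 2 had an unadjusted p under 0.05, and the median log2 fold change of the 6 was 0.25. Those 2, named after their values were seen, were Mmp12, macrophage metalloelastase, and Mmp13, the main interstitial collagenase of rodents. Mmp12 had 0.59, 0.51 and 0.78 FPKM in NS-DADm, against 0.31, 0.17 and 0.28 in WT, from 23 to 34 and from 6 to 12 reads. Mmp13 had 0.65, 0.81 and 0.53 FPKM in NS-DADm, against 0.43, 0.26 and 0.20 in WT. In both genes every NS-DADm sample was above every WT sample, as was so for 8.94% of all tested genes. Mmp12 and Mmp13 had log2 fold changes of 1.32 (SE 0.33, adjusted p = 0.0631, edgeR) and 1.17 (SE 0.37, adjusted p = 0.124), neither past the threshold. The other tested genes had log2 fold changes of 0.39 for Mmp28, 0.12 for Mmp11, -0.03 for Mmp23 and -0.11 for Mmp17. The neutrophil collagenase Mmp8 had 1 read in WT 1 and none elsewhere, and Mmp1a, Mmp1b, Mmp10 and Mmp20 were not listed.

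Partners, inhibitors and clearance receptors of MMPs did not pass the test in edgeR, with 0 of 19 tested genes called. An unadjusted p under 0.05 was found for 7 of them, against 18.1% of all tested genes, and 12 had a positive fold change, against 49.3%. DESeq2 called 2 higher, edgeR without the low-count filter 1 and edgeR without WT 3 called 2, while limma called none. Their median log2 fold change was 0.30. From here to the end of the paragraph, genes that were not called are named after their values were seen. Reck, a membrane-anchored MMP inhibitor, had a log2 fold change of 0.30 (adjusted p = 0.266), and Lcn2, whose protein binds MMP-9, one of 0.46 (adjusted p = 0.456). Cd44, a receptor that docks MMP-9 at the cell surface, had 5.48, 3.77 and 4.02 FPKM in NS-DADm, against 3.38, 2.71 and 3.49 in WT (log2 fold change 0.49, adjusted p = 0.117). Thbs2 and Cldn5 went the other way, at -0.27 and -0.29 (adjusted p = 0.152 and 0.254, edgeR). In this list groups were apart for 4 genes with NS-DADm above WT and for 4 with NS-DADm below, against 8.94% and 14.5% of all tested genes. Of the plasminogen system, which can activate pro-MMPs, 0 of 8 tested genes were called by edgeR, DESeq2 or limma and 2 had an unadjusted p under 0.05. All 8 had a positive fold change, with a median of 0.20 on the log2 scale. The urokinase receptor Plaur was the one with the largest, at 0.85 (adjusted p = 0.107).

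The 22 tested ADAM and ADAMTS proteases are relatives of the MMPs that shed membrane proteins and cut proteoglycans and procollagens. Of these, 1 was called higher and 0 lower, against 1.79% and 1.41% of all tested genes. The median log2 fold change of the 22 was 0.12. The gene called was Adamts3, a procollagen N-proteinase, with 1.57, 1.49 and 1.44 FPKM in NS-DADm, against 1.02, 1.03 and 1.05 in WT (log2 fold change 0.55, SE 0.12, adjusted p = 0.0399, edgeR). Adamts3 lost its call when any 1 of the 6 samples was left out, and also with DESeq2, with limma and with the atrial score (adjusted p up to 0.156). Of the same list, 2 genes were called lower with the atrial score and 1 without NS-DADm 3. Collagens, laminins, elastin and other proteins that MMPs cut gave 0 calls of 29 tested genes by edgeR and by limma, with 12 at an unadjusted p under 0.05, against 18.1% of all tested genes. DESeq2 called 4 of them higher, edgeR without the low-count filter 3, edgeR with the atrial score 3 higher and 1 lower, edgeR without NS-DADm 2 called 1 higher, and edgeR without WT 3 called 1 higher and 1 lower. Their median log2 fold change was 0.10, and 22 of the 29 were positive. Groups were apart for 6 of them with NS-DADm above WT and for 3 with NS-DADm below, against 8.94% and 14.5% of all tested genes. The type IV collagen gene Col4a1, a basement membrane substrate of MMP-9 named after its value was seen, had a log2 fold change of 0.25 (adjusted p = 0.205, edgeR). Lamb1 and Col15a1, also named after their values were seen, were lower, at -0.25 and -0.32 (adjusted p = 0.0926 and 0.121, edgeR).

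Of 11 tested cytokines and growth factors known to act on MMP or TIMP genes, 2 were called higher and 0 lower. Among all tested genes, 1.79% were called higher and 1.41% lower. The median log2 fold change of the 11 was 0.27. Ctgf, a matricellular growth factor, had 104.56, 79.65 and 108.66 FPKM in NS-DADm, against 36.57, 35.11 and 60.60 in WT, and rose 2.25-fold (adjusted p = 0.0112, edgeR). Tgfb3, a TGF-beta ligand, rose 1.49-fold (adjusted p = 0.0339). Ctgf was not called without WT 1 or WT 2 (adjusted p = 0.0519 and 0.0593), and Tgfb3 not without NS-DADm 1, NS-DADm 3, WT 1 or WT 2 nor with limma (up to 0.145). Il1b, the cytokine interleukin-1 beta, named after its values were seen, had 21, 11 and 11 reads in NS-DADm, against 1, 4 and 4 in WT, and did not pass the test (adjusted p = 0.0796). Of 15 tested AP-1, NF-kB, ETS and related transcription factors, families whose sites are known in MMP promoters, 3 were called higher and 0 lower. These counts are to be read against the same 1.79% and 1.41%. The median log2 fold change of the 15 was 0.21. The AP-1 subunits Fos and Junb rose 2.46-fold and 1.47-fold (adjusted p = 0.0483 and 0.0229), and Stat3 rose 1.20-fold (adjusted p = 0.0331). None of the 3 was called in every alternative. Stat3 was not called with limma or when any 1 sample was left out (adjusted p up to 0.125, edgeR). Fos was not called with limma, with the atrial score, or without NS-DADm 1, NS-DADm 3 or any 1 WT sample (up to 0.167). Junb was not called without NS-DADm 1, NS-DADm 2, WT 1 or WT 2 (up to 0.111).

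Of 18 macrophage markers 17 could be tested, and 8 were called higher and 0 lower by edgeR, against 1.79% of all tested genes called higher. All 17 had a positive fold change, against 49.3% of all tested genes, with a median log2 fold change of 0.45. The other 9 did not pass, and in some of these, named after their values were seen, the groups overlapped: Aif1 had 4.10, 1.95 and 2.93 FPKM in NS-DADm, against 2.44, 3.19 and 2.76 in WT, and Ccr2, the monocyte chemokine receptor, had 2.29, 0.89 and 2.13 in NS-DADm, against 1.06, 1.37 and 1.39 in WT. The summed FPKM of the list was 375.7, 334.0 and 370.5 in NS-DADm, against 252.0, 240.4 and 247.9 in WT. The ratio of the group means of these sums was 1.46. Ctss, the lysosomal protease cathepsin S, rose 2.32-fold (adjusted p = 0.000164), the rises of the complement genes were 1.41-fold for C1qa, 1.45-fold for C1qb and 1.52-fold for C1qc, and the folate receptor Folr2 and the growth factor receptor Csf1r rose 1.66-fold and 1.36-fold. Without WT 2 the number of macrophage markers called was 3, without NS-DADm 1 it was 4, and without NS-DADm 2 or WT 1 it was 5. The part of macrophage content in the Mmp9 result was not tested.

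Neutrophils, which store MMP-9 in granules, had low marker levels in every sample. Of 14 neutrophil markers, Ly6g, Mpo and Elane were not listed in any sample, and the summed FPKM of the list was 8.07, 7.18 and 7.97 in NS-DADm, against 8.40, 5.41 and 5.25 in WT. Ncf1, an oxidase subunit that macrophages also express, gave the largest part of that sum, at 3.56 to 4.71 FPKM in NS-DADm and 2.52 to 3.77 in WT. The granule proteins S100a8 and S100a9 had at most 9 reads in a sample. Of the 2 neutrophil markers that could be tested, 0 were called by edgeR, DESeq2 or limma and 1 had an unadjusted p under 0.05. Both had a positive log2 fold change, 0.49 for Ncf1 and 0.58 for Csf3r (adjusted p = 0.175 and 0.475, edgeR). The part of neutrophils in the Mmp9 result was not tested.

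Markers of 4 structural cell types gave no calls by edgeR, with counts at an unadjusted p under 0.05 to be read against 18.1% of all tested genes. That holds for 12 fibroblast markers (5 at an unadjusted p under 0.05, median log2 fold change 0.03), 10 endothelial markers (1, median 0.07), 10 smooth muscle and pericyte markers (6, median -0.08) and 10 cardiomyocyte markers (2, median -0.04). DESeq2 called 1 fibroblast marker higher and 1 mural and 1 cardiomyocyte marker lower, and limma called none of these. For the smooth muscle and pericyte markers groups were apart in 4 with NS-DADm below WT and in 0 above, against 14.5% and 8.94% of all tested genes. Their summed FPKM was 352.5, 352.2 and 313.2 in NS-DADm, against 408.6, 398.7 and 385.4 in WT. The most abundant, Rgs5 and Abcc9, had log2 fold changes of -0.33 and -0.24 (adjusted p = 0.0793 and 0.176, edgeR). The fibroblast genes Dcn and Gsn, named for their high level, had log2 fold changes of 0.06 and 0.03. The 5 fibroblast markers at an unadjusted p under 0.05, named after their values were seen, went in both directions. Col1a1 (log2 fold change 0.32), Mfap5 (0.34), Postn (0.39) and Lox (0.48) were higher in NS-DADm, and Lum (-0.24) was lower. The 7 atrial markers and 6 tested adipocyte markers gave no calls either, though their medians were 1.02 and 1.60, with the spread between samples given above.

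Markers of blood and of other cells that a heart sample can hold were examined in the same way. The 5 erythroid markers gave no calls by edgeR, DESeq2 or limma, but all 5 had an unadjusted p under 0.05 and a negative fold change, with a median of -0.50 on the log2 scale. Their summed FPKM was 6679.6, 3394.1 and 4798.2 in NS-DADm, against 7970.2, 6966.1 and 6707.7 in WT. Every NS-DADm sum was below every WT sum, though NS-DADm 1 was only just under WT 3. Groups were apart for 1 of the 5 genes, with NS-DADm below WT, against 14.5% of all tested genes. Of 5 tested Schwann cell and nerve markers 1 was called lower, against 1.41% of all tested genes, and the median was -0.65. The gene called was Dbh, which makes noradrenaline in sympathetic nerves (0.51, 0.14 and 0.48 FPKM in NS-DADm, against 0.92, 1.47 and 1.53 in WT, adjusted p = 0.0470, edgeR). Dbh was not called with limma or when any 1 sample was left out (adjusted p up to 0.174). Of 5 tested mast cell markers 0 were called by edgeR or DESeq2, 1 was called lower by limma and 2 had an unadjusted p under 0.05, with a summed FPKM of 3.69 to 4.67 in NS-DADm and 5.10 to 5.85 in WT. The 5 tested epicardial markers gave no calls by edgeR, DESeq2 or limma, with 1 at an unadjusted p under 0.05 and a median of 1.64, and their list summed to 7.95, 6.68 and 19.7 FPKM in NS-DADm, against 7.13, 4.57 and 6.25 in WT. The 2 lymphocyte markers and the 1 skeletal muscle marker that could be tested gave no calls and none had an unadjusted p under 0.05. The part of blood and of these cells in the Mmp9 result was not tested.

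The genes whose pattern over the 6 samples was most like that of Mmp9 were ranked by the mean absolute difference of log2(FPKM + 0.1) values, each centred on its own mean, among 11155 genes. The pseudogene Olfr1372-ps1 was nearest at 0.41, with 7.62, 8.72 and 7.18 FPKM in NS-DADm, against 0.64, 0.97 and 1.08 in WT. Fcna, a ficolin that macrophages secrete, followed at 0.55, with 7.75, 5.28 and 7.37 FPKM in NS-DADm, against 2.62, 1.82 and 1.28 in WT. The other 3 were Wdfy1 (0.66), an adaptor of endosomal signalling, the chemokine gene Ccl8 (0.69) and Myot (0.73), a Z-disc protein of muscle. In all 5 the NS-DADm samples were above the WT samples, which the measure of likeness favours, and all but Ccl8 (adjusted p = 0.0978) were called.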

How the data were processed

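Per the labels' protocols, RNA of 3 NS-DADm and 3 WT myocardium samples was obtained with Trizol, a Qiagen kit followed, and libraries were prepared by BGI's protocols. The authors deposited, for each sample, tables of expected counts and FPKM for genes and for transcripts. Per the submitters' processing notes HISAT was used; the sources used here give neither its version nor the estimator of expected counts, the genome build or the use of strand. The deposited tables list features with an FPKM of at least 0.01, and a gene not listed in a sample was taken as 0. Between 10.8% and 11.6% of gene counts were not whole numbers (tolerance 0.005), and 1 row without a symbol (at most 0.000321% of counts) was left out. Chi-square values per gene between samples (3.37 to 17.0) showed no sample deposited more than once.

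Expected counts were rounded, filtered with filterByExpr, scaled by TMM and tested for NS-DADm over WT by the quasi-likelihood method of edgeR (version 4.0.16 in R 4.3.3). P-values were adjusted by Benjamini-Hochberg over all 13130 genes, or 17498 transcripts, and those with an adjusted p under 0.05 are named called. The test was also run on simulated counts. These had the same spread for every gene and transcript and no difference in atrial content. They therefore do not represent the transcript fit or the differences between these samples. FPKM served for levels and ratios. Alternatives were DESeq2 size factors, DESeq2's Wald test (1.42.0), limma (3.58.1) on log2(FPKM + 1) and log2(FPKM + 0.1), no low-count filter, a mean FPKM of at least 1, a replicate block, an atrial score as covariate and leaving out each sample; comparisons within atrial-rich and atrial-poor samples were added after the data were seen.

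Named genes are the 10 members, Ncor1, Hdac3, genes lying over a member, up to 6 called genes of each list and some of the most abundant cell type markers. The 5 genes nearest to a called member (mean FPKM of at least 1, no Gm or Rik names) are also named. The members and lists were chosen with earlier results of these data known. Sequences came from GRCm38 with GENCODE vM21; RefSeq's GRCm38.p6 table served only for which genes overlap. A result on 1 further gene is not reported here.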

Additional observations from a re-analysis of the deposited data

How the results depend on the processing

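Mmp9 was called in all 14 alternatives, at log2 fold changes of 1.64 to 3.76, the lowest with limma on log2(FPKM + 1), which understates low genes. Of the 140 fits of the 10 genes, 136 kept direction and side of the threshold. The exceptions were Timp3, called without WT 3, Mmp2, which turned to 0.02 without NS-DADm 2 (-0.03 to 0.02 over the samples left out), and Mmp3, which turned to 0.05 without NS-DADm 2 and 0.40 without WT 3 (-0.64 to 0.40); the cause was not tested. The number of members called was 1 to 2 when each sample was left out. Over all genes, 235 were called higher and 185 lower. Limma called 115 higher on log2(FPKM + 1), and 109 higher and 123 lower on log2(FPKM + 0.1). Leaving out each sample gave 64 to 210 higher and 53 to 172 lower, as fewer samples entered. The labels number samples alike in both groups but do not say whether the numbers pair them, and the main test took the samples as unpaired. Deviations of same-numbered samples correlated at -0.0503, 0.33 and 0.398, and those of differently numbered samples at -0.439 to 0.19. These values do not settle whether the samples are paired. With a replicate block 525 genes were called higher and 370 lower, Mmp9 stayed at 3.16 and Mmp12 passed (adjusted p = 0.0373, against 0.0373 to 0.227 over its alternatives). It also called 5 substrate genes higher and 3 lower, 2 ADAM or ADAMTS genes lower, 3 partners or regulators of MMPs higher and 1 plasminogen system gene higher. Mmp3, Mmp19, Timp1, Mmp12 and Mmp13 had under 100 reads in every sample, and how far depth limits them was not tested.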
